A study of Homo sapiens and Mus musculus with 41 samples.

Results

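Integrins are cell surface receptors that tie a cell to the extracellular matrix. Each receptor is a pair of 1 α and 1 β subunit, the pairing sets which matrix protein is bound, and the bound receptor links to the actin cytoskeleton, or in the case of α6β4 to keratin filaments at hemidesmosomes. Described here are 10 subunit genes, picked by symbol from the 4 deposited tables with upper and lower case treated alike: ITGA1, ITGA2, ITGA3, ITGA5, ITGA6, ITGAV, ITGB3, ITGB4, ITGB6 and ITGB8. All 10 were found among the 23368 genes of each of the 3 human tables and the 23337 genes of the mouse table. The products of ITGA1 and ITGA2 bind collagen, those of ITGA3 and ITGA6 bind laminin, and that of ITGA5 binds fibronectin, all with the common partner β1, whose gene ITGB1 is not among the 10. ITGB4 encodes the partner of α6 in hemidesmosomes. ITGAV encodes αv, which pairs with the products of ITGB3, ITGB6 and ITGB8, as well as with β1 and β5, to bind matrix proteins with an RGD motif. αvβ6 and αvβ8 are known for activating latent TGF-beta, and αvβ6 is an integrin of epithelial cells.

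RNA was sequenced from cultured tumour cells in 41 libraries, which cover 4 models at 4 stages. The models are HCC1954, a human invasive ductal breast carcinoma line with raised HER2, MDA-MB-231, a human invasive ductal breast carcinoma line negative for ER, PR and HER2, PC9, a human lung adenocarcinoma line with raised EGFR, and LLC, the Lewis lung carcinoma of the C57/B6 mouse. Every line and derivative carries stable GFP from its parental line (Par). The derivatives are an intermediate one (Int), one from leptomeningeal metastasis (Lep) and one from brain metastasis (BrM). Par has 3 libraries and Int 2 in each model. Lep has 3 in HCC1954 and LLC and 2 in the remaining models, and BrM has 2 in HCC1954 and 3 elsewhere. Cells washed out of the leptomeningeal space of mice were cultured on plain plastic in medium with serum until the culture was uniformly GFP-positive. They were then passaged, so libraries of these cells were not made from cells lying on their host matrix. How the BrM cells were obtained is not described in the labels. The Par replicates are called technical and the Int and Lep replicates a mixture of biological and technical ones, with no word on which is which, so p-values measure only the spread between these libraries. Mouse symbols are written in capitals here. In such bulk RNA, fewer cells expressing a gene and less RNA per cell cannot be told apart.

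Values are normalized counts, that is, reads per gene divided by 1 size factor per library. Each model was normalized on its own, so all comparisons were made within a model. Library totals ran from 25330801 to 67367833 reads in HCC1954, 23508951 to 110830546 in MDA-MB-231, 16792027 to 38432963 in PC9 and 18029707 to 67939274 in LLC. A gene was called when its log2 fold change was at least 1 in size and its Benjamini-Hochberg adjusted p from limma, over all genes of the model, was below 0.05. Log2 fold changes are on the scale of log2(normalized count + 1) and are given ± their standard error. Library differences tied to transcript length bear on these genes, since the 10 members have longer transcripts than 60.8% to 96.8% of the genes tested. In HCC1954 the rank correlation, across genes, between transcript length and a library's deviation from the model's mean lay between -0.07 and 0.09. In MDA-MB-231 it was 0.50 in Par replicate 1 but -0.36 and -0.48 in Par replicates 2 and 3, and 0.48 and 0.46 in the Int libraries. In PC9 it was 0.35 to 0.38 in Par and 0.28 to 0.42 in BrM but -0.50 to -0.39 in Int and Lep, so length and stage moved together there. Values corrected for length and GC content are given beside many, but not all, of the PC9 and MDA-MB-231 results they change. No such value was computed for LLC.

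The label of the models was checked against marker genes. The summed level of 5 epithelial markers (EPCAM, KRT8, KRT18, CDH1 and KRT19) in HCC1954 ran from 192309 to 194249 in Par and from 54659 to 56753 in Lep. In LLC the epithelial markers EPCAM and CDH1 were below 10 in every library, but the other members of the list were not all low. The sum of the 5 there was 15441 to 17375 in Par, 3070 to 7990 in Lep and 16525 to 24383 in BrM. Of the 7 leukocyte markers, PTPRC and AIF1 were below 10 in every HCC1954 and PC9 library, AIF1 and ITGAM were in MDA-MB-231, and the summed level in Par was 3245 to 3310 in HCC1954, 3299 to 3454 in PC9 and 8592 to 11966 in MDA-MB-231. Of the 4 platelet markers, GP9 was below 10 in every library of the 4 models. The sum of the 4 in Par was 224 to 241 in HCC1954, 9.07 to 16.2 in MDA-MB-231, 227 to 243 in PC9 and 185 to 270 in LLC. Among them ITGA2B, itself an integrin gene, was 221 to 241 in HCC1954 Par and 227 to 243 in PC9 Par. In the human models a host cell would be a mouse cell, whose genes these tables do not list. Whether mouse reads were counted under human symbols was not tested.

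In HCC1954 all 10 integrin genes were higher in every Lep library than in every Par library. Of these, 5 were called higher and none lower: ITGB3, which gives the β3 partner of αv, the collagen receptor gene ITGA1, the laminin receptor gene ITGA6, ITGB6 and the fibronectin receptor gene ITGA5. Among all 15561 genes tested in this comparison, 26.8% were called, 13% higher and 13.8% lower. Over all genes, 40.9% lay higher in Lep than in Par without overlap. The median log2 fold change was 0.95 over the 10 members and -0.02 over all genes. In Lep with Int, 5 members were called higher and none lower (15.1% of all genes called, 11.7% higher and 3.47% lower), and all 10 were again above every Int library, as were 39.9% of all genes. Of all calls in that comparison, 77.1% were higher, and 58.0% with quantile normalization. In Lep with BrM, 6 members were called higher and none lower (17.1% of all genes called, 10.5% higher and 6.54% lower). The length and GC correction took ITGA3 from 1.06 to 0.98 and ITGA5 from 1.03 to 0.92, which ended both calls, and in Lep with Int it took ITGB6 from 1.05 to 0.99. In BrM with Par the set split: ITGA1, ITGB3 and ITGB6 were called higher, and ITGA2, ITGA6 and ITGB4 lower (23.6% of all genes called, 9.63% higher and 14.0% lower, a share of higher calls of 40.8% that was 54.8% with quantile normalization). Those 3 falls, at -1.03, -1.05 and -1.13, ended at -0.91, -0.93 and -0.95 after the length and GC correction, short of the fold threshold. In Int with Par, limma, edgeR and DESeq2 called 0 of 10, with 8 at an unadjusted p under 0.05 in limma, and limma called 1 without Int replicate 2 (21.2% of all genes called, 6.6% higher and 14.6% lower, a share of higher calls of 31.1% that was 54.4% with quantile normalization). Quantile normalization moved the median of all genes there from 0.01 to 0.12. These comparisons share libraries, so their counts are not independent. The summed level of the 5 endothelial markers PECAM1, CDH5, VWF, KDR and CLDN5 was 4941 to 4952 in the HCC1954 BrM libraries and 885 to 974 in Par, and its part in the BrM results was not tested.

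In MDA-MB-231 the integrin genes were highest in Int. In Int with Par, 6 of 10 members were called higher and none lower (6.94% of all genes called, 4.33% higher and 2.61% lower), and 9 were above every Par library, as were 26.6% of all genes. The 6 were ITGA1, ITGA2, ITGA5, ITGAV, ITGB4 and ITGB6. ITGB6 entered the test only through its Int and 1 of its Lep libraries, so its call follows its selection and the count to read is the other 5. The count was 3 without Par replicate 2, 1 without Int replicate 1, 0 without Int replicate 2, 3 without BrM replicate 3 and 8 at most over the left-out libraries. The length and GC correction took ITGAV to 0.79 and out of the calls and brought ITGB3 in at 1.55. In Lep with Par, limma, edgeR and DESeq2 called 0 of 10 (0.0662% of all genes called by limma, 0.0199% higher and 0.0463% lower), with 3 at an unadjusted p under 0.05 in limma. Without Par replicate 1 the count was 1. In BrM with Par, limma and edgeR called 0 and DESeq2 1, with 1 at an unadjusted p under 0.05 in limma (0.45% of all genes called). It was 2 without Par replicate 3. In Lep with Int, limma and edgeR called 0 and DESeq2 2 (0.159% of all genes called, of which 16.7% were higher and 30% with quantile normalization), while all 10 members were lower in every Lep library than in every Int library, as were 31.7% of all genes, and 7 had an unadjusted p under 0.05. It was 1 without Par replicate 1 or without Par replicate 3. In Lep with BrM only ITGB4 was called, higher in Lep (0.827% of all genes called, 0.344% higher). It was not called without either Int library, either Lep library, BrM replicate 2 or BrM replicate 3, and 3 members were called without Par replicate 1 and 2 without Par replicate 3.

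In PC9 most members were highest in BrM. ITGB3 stayed at 0 to 8.1 normalized counts in all 10 libraries and was not tested, which left 9 members. In BrM with Par, ITGA1, ITGA2, ITGB4 and ITGB6 were called higher and none lower (7.72% of all genes called, 4.62% higher and 3.1% lower), and 8 of 9 were above every Par library, as were 29.1% of all genes. In Lep with BrM, 6 members were called lower and none higher (18.6% of all genes called, 7.83% higher and 10.8% lower). With the length and GC correction the count was 3: ITGA2 and ITGB6 remained lower and ITGB8 was called higher. In Lep with Par, ITGA2 and ITGA6 were called lower (15.1% of all genes called, 6.65% higher and 8.49% lower), at log2 fold changes close to the threshold. The summed endothelial markers were 844 to 1140 in Lep and 270 to 316 in Par, with KDR and CLDN5 below 10, and the summed epithelial markers 404557 to 436123 and 211238 to 225006, and their part was not tested. Only 1 member was called without Par replicate 2, and neither ITGA2 nor ITGA6 was a call without Lep replicate 1. Corrected for length and GC, both were lost, and ITGB8 was called higher. In Int with Par, ITGA2 was called lower and none higher (13.9% of all genes called, 6.24% higher and 7.71% lower), a call the correction also ended. It was lost without Par replicate 2 or Int replicate 2, and 2 members were called without Par replicate 1 or Int replicate 1. In Lep with Int, limma, edgeR and DESeq2 called 0 of 9, with 0 at an unadjusted p under 0.05 in limma (0.608% of all genes called).

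In LLC, ITGB6 stayed at 0 to 3.51 normalized counts in all 11 libraries and was not tested. Of the 9 tested members, the laminin receptor genes ITGA3, ITGA6 and ITGB4 and, with them, ITGB8 were called lower in Lep with Par, and none was called higher (20.3% of all genes called, 8.0% higher and 12.3% lower). The summed level of the 7 leukocyte markers was 1959 to 2035 in Lep and 1412 to 1576 in Par. Of them AIF1 was below 10 in every Lep library, and PTPRC, CSF1R and ITGAM, below 10 throughout Par, reached 10 in at least 1 Lep library. Its part in these calls was not tested. In Int with Par, ITGA2 was called higher and none lower (11.5% of all genes called, 6.4% higher and 5.08% lower). The count was 0 without Int replicate 1, 3 without Int replicate 2, and 2 without Lep replicate 2, BrM replicate 1 or BrM replicate 2. The same sum was 6623 to 7076 in Int, with PTPRC, CSF1R, AIF1 and ITGAM below 10 there, and its part in this result was not tested. In BrM with Par, ITGA6 and ITGB8 were called lower (23.2% of all genes called, 8.14% higher and 15.1% lower, a share of higher calls of 35.0% that was 50.5% with quantile normalization). That normalization moved the median of all genes in this comparison from -0.05 to 0.06, and 4 members were called without BrM replicate 1. In Lep with Int, ITGA2, ITGA3, ITGA6, ITGB3 and ITGB4 were called lower (22.5% of all genes called, 8.47% higher and 14.0% lower, a share of higher calls of 37.6% that was 48.5% with quantile normalization). The count was 2 without Int replicate 1 and 3 without Lep replicate 1. In Lep with BrM, ITGA1 and ITGA2 were called higher and ITGA3 and ITGB4 lower (18.0% of all genes called, 11.1% higher and 6.85% lower), and 2 were called without Lep replicate 3 or without BrM replicate 2.

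**Figure D1:**
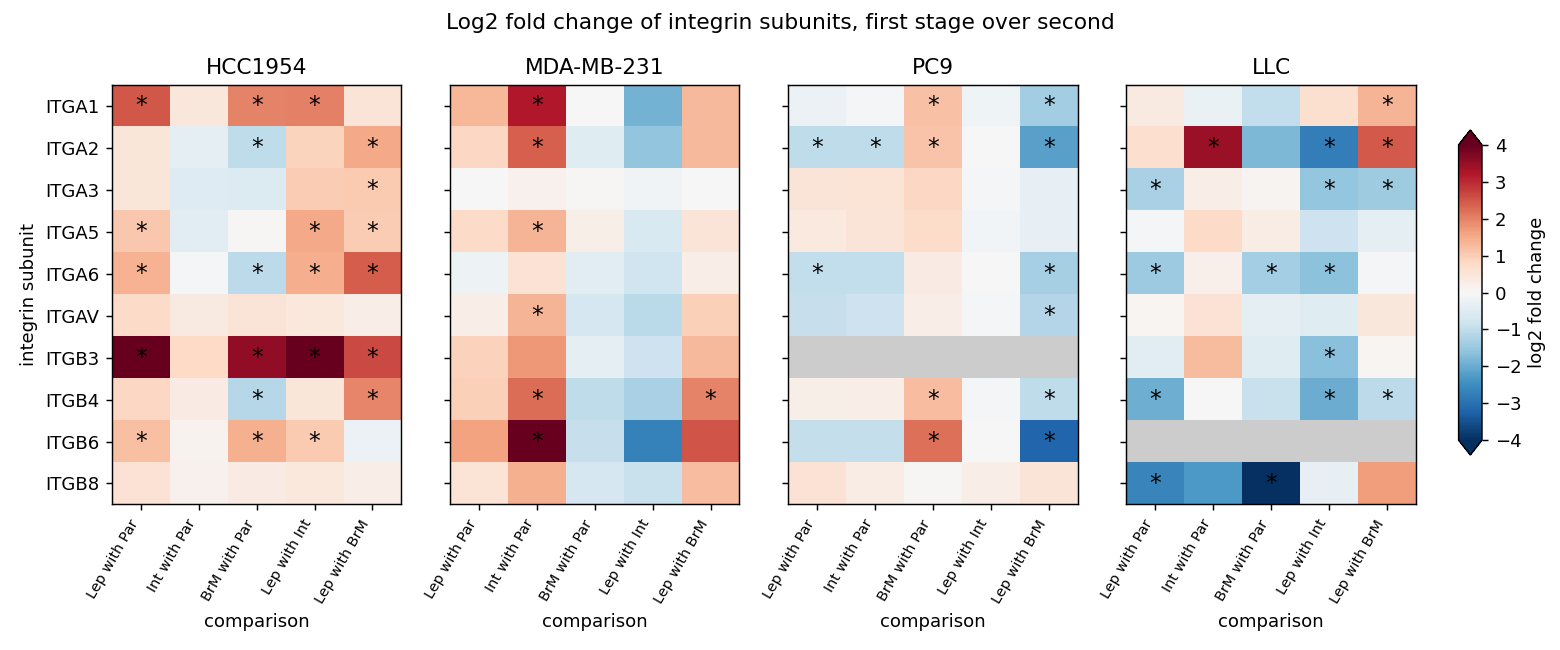
Log2 fold change of each integrin subunit gene (vertical axis) in 5 comparisons (horizontal axis) of each model, first stage over second; red is higher in the first stage, blue lower, grey not tested, the color scale ends at 4 in size, and an asterisk marks a call by limma. The HCC1954 Lep columns are red nearly throughout, and MDA-MB-231 has 6 calls in Int with Par and 1 elsewhere. Of those 6, the call of ITGB6 follows its selection, since ITGB6 passed the filter only through Int and 1 Lep library. PC9 has 6 lower calls in Lep with BrM, 2 in Lep with Par and 1 in Int with Par. LLC has 4 lower calls in Lep with Par.

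The collagen receptor genes ITGA1 and ITGA2 encode α subunits that carry an inserted domain for binding native collagen. In HCC1954, ITGA1 was 116, 124 and 94.9 normalized counts in Par, 129 and 177 in Int, 690, 570 and 601 in Lep, and 400 and 478 in BrM. The Lep and BrM libraries stood clear of the Par and Int libraries without overlap. The log2 fold change was 2.47 ± 0.13 in Lep with Par (limma adjusted p = 9.7e-10) and 1.97 ± 0.15 in BrM with Par (adjusted p = 4.5e-08), while Lep with BrM, at 0.50 ± 0.15, did not pass the fold threshold. ITGA2 took another order in the same cells. It was 9045, 7918 and 8939 in Par, 6559 and 6529 in Int, 11785 to 12789 in Lep, and 4139 and 4311 in BrM. ITGA2 was thus highest in Lep and lowest in BrM with no overlap between any 2 stages, at 0.49 ± 0.05 in Lep with Par and -1.03 ± 0.05 in BrM with Par (limma adjusted p = 7.5e-10).

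In MDA-MB-231 both collagen receptor genes peaked in Int. ITGA1 was 1199, 621 and 490 in Par, 4966 and 8822 in Int, 1619 and 1992 in Lep, and 671, 798 and 718 in BrM. Every Int library lay above all others and the Lep libraries above Par and BrM, and Int with Par differed by 3.21 ± 0.37 (limma adjusted p = 0.0054, and 0.11 without Int replicate 2). After the length and GC correction, ITGA1 differed by 2.52 in Int with Par. Lep with Par, at 1.33 ± 0.37 before correction, was not called (limma adjusted p = 0.26). ITGA2 was 18487, 12996 and 4082 in Par, 46275 and 58493 in Int, 18585 and 16630 in Lep, and 6850 to 7541 in BrM. Int was highest, and the distance from the lowest to the highest library was widest in Par. It differed by 2.39 ± 0.51 in Int with Par (limma adjusted p = 0.027) and by 1.78 after the length and GC correction.

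In PC9, ITGA1 was low, at 54.0 to 75.7 in Par, 61.5 and 64.2 in Int, 47.7 and 66.0 in Lep, and 157, 159 and 135 in BrM. Only BrM stood apart, by 1.16 ± 0.17 over Par (limma adjusted p = 0.00017). ITGA2 was 7270, 7700 and 7472 in Par, 3781 and 3624 in Int, 2693 and 5017 in Lep, and 17930, 16377 and 15224 in BrM. The Par libraries lay between the lower Int and Lep libraries and the higher BrM libraries. ITGA2 differed by 1.14 ± 0.16 in BrM with Par (limma adjusted p = 9.3e-05) and by -2.16 ± 0.18 in Lep with BrM (adjusted p = 2.9e-07), and the correction gave 1.20 and -1.57. The change of -1.02 ± 0.18 in Lep with Par was -0.38 after correction and -0.58 without Lep replicate 1, neither of them a call.

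In LLC, ITGA2 was a low gene whose Int libraries stood out. It was 20.6, 11.9 and 13.1 in Par, 254 and 115 in Int, 10.2, 38.3 and 34.4 in Lep, and 11.4, 0 and 6.59 in BrM. Int lay above all other libraries, by 3.44 ± 0.89 over Par (limma adjusted p = 0.015, and 0.13 without Int replicate 1). Lep with BrM was called at 2.46 ± 0.80 (adjusted p = 0.024) although the 2 groups overlapped. It was not called with quantile normalization, with only the 2 stages in the fit, or without Lep replicate 2, Lep replicate 3 or BrM replicate 2, where limma gave adjusted p from 0.06 to 0.089 and a lowest value of 1.37. LLC ITGA1 ran from 560 to 652 in Par, 481 to 535 in Int, 640 to 924 in Lep and 242 to 369 in BrM. It differed by 1.36 ± 0.19 in Lep with BrM (limma adjusted p = 0.00017), with no overlap between those stages.

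The laminin receptor genes are ITGA3, ITGA6 and ITGB4. In HCC1954, ITGA6 was 11863, 11352 and 11293 normalized counts in Par, 10309 and 11562 in Int, 31853, 29573 and 28842 in Lep, and 5362 and 5772 in BrM. Lep lay above and BrM below the overlapping Par and Int libraries. ITGA6 differed by 1.39 ± 0.05 in Lep with Par (limma adjusted p = 8.3e-12), -1.05 ± 0.05 in BrM with Par (adjusted p = 6.2e-10) and 2.43 ± 0.05 in Lep with BrM (adjusted p = 9.4e-13). Its hemidesmosome partner ITGB4 was 20765 to 21806 in Par, 25078 and 28951 in Int, 37172 to 38747 in Lep, and 9787 and 9698 in BrM. ITGB4 was separate at every stage, with Lep highest and BrM lowest, but Lep with Par, at 0.83 ± 0.04, did not reach the fold threshold. Lep with BrM did, at 1.96 ± 0.05 (limma adjusted p = 2.2e-12). Since ITGA6 changed more than ITGB4 between Par and Lep, the ratio of ITGB4 to ITGA6 normalized counts, not adjusted for length, fell outside the Par range of 1.83 to 1.90 in Lep, at 1.22 to 1.29, and was 2.43 to 2.50 in Int. ITGA3 ran from 21937 to 23939 in Par, 15506 to 16942 in Int, 30544 to 33535 in Lep and 14953 to 16237 in BrM. Int and BrM overlapped, both below Par, and Lep was above, by 0.49 ± 0.05 over Par and 1.06 ± 0.05 over BrM. The latter was 0.88 with quantile normalization and so not called.

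In MDA-MB-231, ITGA3 hardly varied, at 42281 to 51942 in Par, 49563 and 51645 in Int, 46048 and 45144 in Lep, and 44748 to 48295 in BrM. No comparison of it was called. The 2 Lep libraries of ITGA6 disagreed, at 19853 and 44749, and spanned the Par libraries (29232 to 42001) and all 3 BrM libraries (25002 to 25222). ITGB4 was 1068, 861 and 1567 in Par, 5410 and 5283 in Int, 1994 and 2412 in Lep, and 798, 404 and 539 in BrM. Its stages followed the order Int, Lep, Par, BrM without overlap. ITGB4 differed by 2.24 ± 0.32 in Int with Par (limma adjusted p = 0.0085, and 0.14 without Int replicate 2) and by 1.97 ± 0.32 in Lep with BrM (adjusted p = 0.034, and 0.16 without BrM replicate 3). Lep with Par, at 0.96 ± 0.32, was not called (adjusted p = 0.34).

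In PC9 the laminin receptor genes did not share a pattern. ITGA6 was 6317, 6524 and 6388 in Par, 3206 and 3255 in Int, 2697 and 3803 in Lep, and 8482, 7819 and 7824 in BrM. Int and Lep overlapped, below Par, and BrM was highest. ITGA6 was called in Lep with Par at -1.0 ± 0.11 (limma adjusted p = 3.6e-06), right at the fold threshold, and was -0.96 with edgeR, -0.98 with DESeq2, -0.54 after the length and GC correction and -0.75 without Lep replicate 1. ITGB4 was 3943, 4244 and 3887 in Par, 4853 and 4908 in Int, 4037 and 5433 in Lep, and 9210, 9349 and 9807 in BrM. Only BrM was clearly apart, by 1.23 ± 0.09 over Par (limma adjusted p = 2.8e-07) and 0.99 after correction, just short of the threshold. The ratio of ITGB4 to ITGA6 normalized counts in PC9 was 0.608 to 0.651 in Par and 1.43 to 1.5 in Lep. ITGA3 ran from 9119 to 9588 in Par and 12066 to 14674 in Lep, at 0.52 ± 0.08.

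In LLC the laminin receptor genes were lower in Lep. ITGA3 was 5317, 5131 and 5079 in Par, 5647 and 6921 in Int, 1879, 2062 and 2444 in Lep, and 5828, 5233 and 5846 in BrM. The 3 Lep libraries lay below all others, by -1.29 ± 0.12 from Par (limma adjusted p = 9.3e-06) and -1.41 ± 0.12 from BrM (adjusted p = 5.9e-06). ITGB4 was 254, 256 and 203 in Par, 372 and 157 in Int, 62.6, 69.0 and 50.6 in Lep, and 101, 146 and 135 in BrM. Lep was again lowest and separate, at -1.96 ± 0.29 from Par (limma adjusted p = 0.00023). ITGA6 was 14196, 15221 and 16969 in Par, 20717 and 15139 in Int, 7984, 3381 and 6768 in Lep, and 8124, 3474 and 7497 in BrM. Lep and BrM overlapped fully and both lay below Par, by -1.44 ± 0.33 (limma adjusted p = 0.0039) and -1.37 ± 0.33 (adjusted p = 0.0044, and -0.98 without BrM replicate 2). The summed level of the 4 mesenchymal markers VIM, CDH2, FN1 and ZEB1 in LLC was 364064 to 382364 in Par and 125014 to 200536 in Lep, and its part in these results was not tested.

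**Figure D2:**
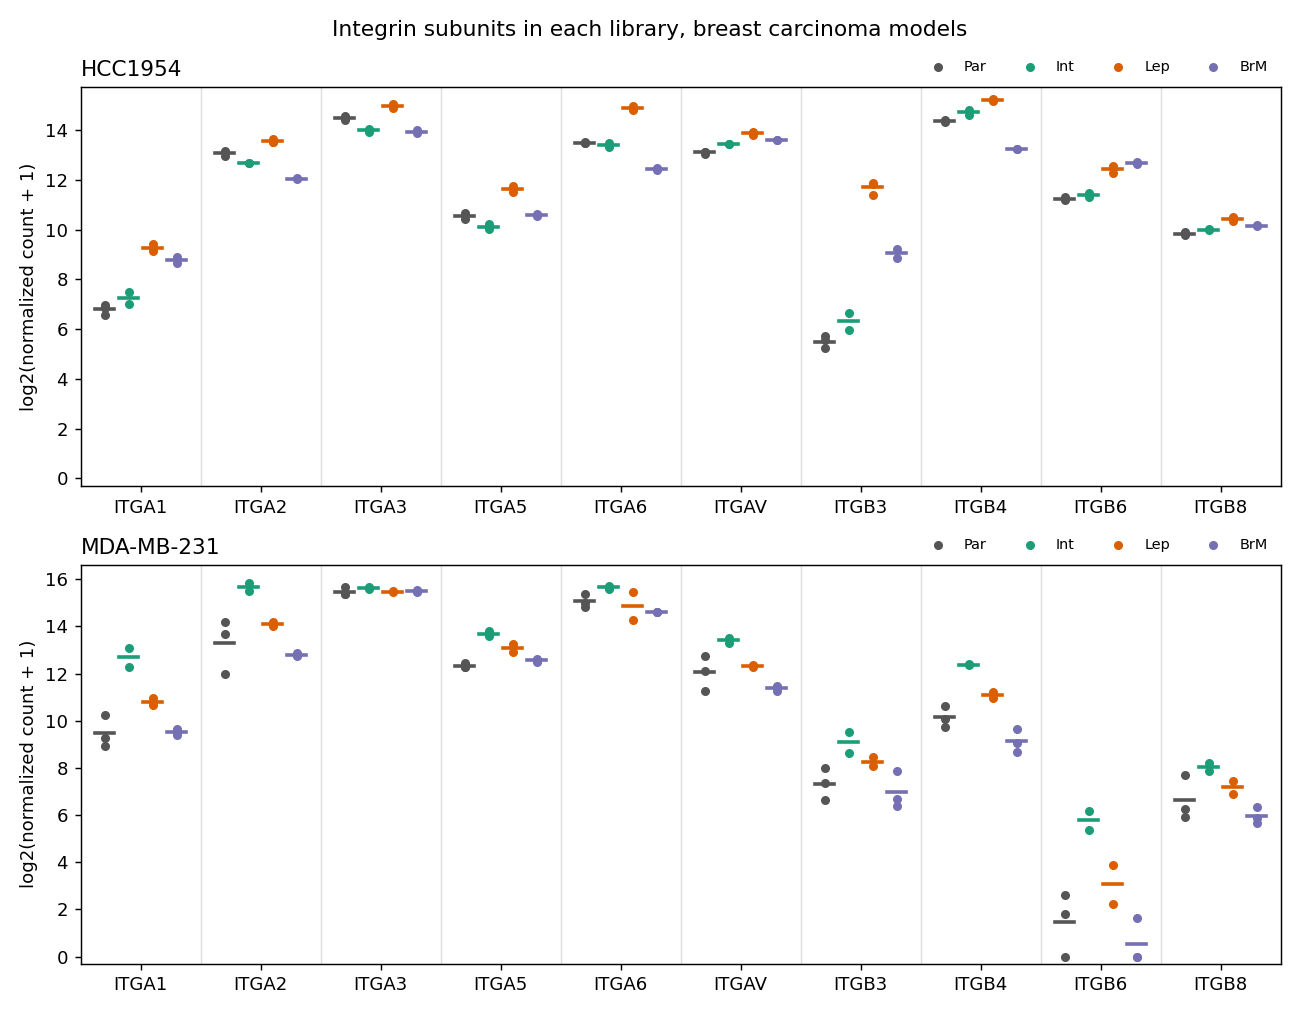
Level of each integrin subunit gene, as log2(normalized count + 1), in every library of HCC1954 (top) and MDA-MB-231 (bottom); points are libraries, colored by stage, and short bars are stage means. In HCC1954 the Lep points are the highest for 9 of 10 genes, with ITGB6 highest in BrM, and in MDA-MB-231 the Int points are the highest for most genes while the 3 Par points spread widely.

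The fibronectin receptor gene ITGA5 moved less than most. In HCC1954 it was 1540, 1395 and 1617 normalized counts in Par, 1049 and 1181 in Int, 3231, 3417 and 2889 in Lep, and 1512 and 1598 in BrM. Lep lay above and Int below the overlapping Par and BrM libraries, and Lep with Par differed by 1.07 ± 0.07 (limma adjusted p = 4.8e-09). In MDA-MB-231, ITGA5 was 5591, 4995 and 4970 in Par, 12257 and 14201 in Int, 9688 and 7839 in Lep, and 5825, 6370 and 5979 in BrM. All 4 stages were separate, in the order Int, Lep, BrM, Par. Int with Par was called, at 1.35 ± 0.15 (limma adjusted p = 0.0054, and 0.13 without Int replicate 2), and Lep with Par, at 0.75 ± 0.15, was not. No ITGA5 comparison was called in PC9 or LLC. In PC9 it was lowest in Par, at 1155 to 1251, against 1535 and 1589 in Lep. In LLC it was 4879 to 5122 in Par and 4421 to 5012 in Lep, which overlapped.

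The promoters of the genes called higher in HCC1954 Lep with Par are shown to let their start regions be compared. The genes shown share that call but not a course over all stages. In BrM with Par, ITGA1 and ITGB6 were called higher, ITGA6 lower and ITGA5 not. RefSeq starts on GRCh38.p14 were matched by symbol for 7 of the 10 members, and ITGA3, ITGB3 and ITGB4 were not matched. Each sequence is the 250 bases just before a start, 5′ to 3′ on the gene's strand, with capitals marking the GC box letters GGGCGG on either strand.
ITGA1, chr5:52787666-52787915, plus strand: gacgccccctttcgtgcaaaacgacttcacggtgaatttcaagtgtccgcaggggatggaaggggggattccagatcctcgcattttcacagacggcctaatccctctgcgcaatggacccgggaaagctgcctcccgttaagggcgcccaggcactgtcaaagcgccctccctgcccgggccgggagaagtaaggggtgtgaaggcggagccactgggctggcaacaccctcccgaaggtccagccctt
ITGA5, chr12:54419267-54419516, minus strand: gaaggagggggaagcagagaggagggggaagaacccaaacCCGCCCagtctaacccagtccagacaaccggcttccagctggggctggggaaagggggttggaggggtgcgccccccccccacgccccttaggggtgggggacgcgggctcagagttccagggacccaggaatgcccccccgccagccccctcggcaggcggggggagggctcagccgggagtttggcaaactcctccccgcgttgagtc
ITGA6, chr2:172427336-172427585, plus strand: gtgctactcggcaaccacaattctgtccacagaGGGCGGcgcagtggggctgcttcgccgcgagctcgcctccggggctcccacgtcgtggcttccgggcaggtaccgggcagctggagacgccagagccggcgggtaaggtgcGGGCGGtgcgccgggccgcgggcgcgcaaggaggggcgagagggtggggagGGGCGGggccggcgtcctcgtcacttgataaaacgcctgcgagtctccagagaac
ITGB6, chr2:160200273-160200522, minus strand: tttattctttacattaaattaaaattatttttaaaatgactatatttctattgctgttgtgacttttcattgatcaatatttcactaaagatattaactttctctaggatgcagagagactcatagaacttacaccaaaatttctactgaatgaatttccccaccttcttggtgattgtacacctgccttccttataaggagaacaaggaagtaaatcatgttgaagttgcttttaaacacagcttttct
The 4 windows were unlike in base composition, with a GC content of 30% for ITGB6, 62.0% for ITGA1, 70.0% for ITGA5 and 71.6% for ITGA6. GGGCGG occurred 3 times before ITGA6, 1 time before ITGA5 and not before ITGA1 or ITGB6. It was present in 42.6% of 35116 human start windows of the same length. The AP-1 letters TGANTCA, sought on both strands, occurred in 6.57% of those windows and in 0 of the 9 windows of the 7 matched members. With no AP-1 match, the motifs did not overlap here. ITGA6 has another RefSeq start, whose window holds neither motif, and a match describes letters only.

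ITGAV, the α subunit shared by β3, β6 and β8, was called in only 2 of the 20 comparisons. In HCC1954, ITGAV was 8512 to 9005 normalized counts in Par, 11265 and 11240 in Int, 14463 to 15501 in Lep, and 12357 and 12566 in BrM. All 4 stages were separate, with Lep highest, at 0.76 ± 0.03 over Par (limma adjusted p = 5.1e-11) but under the fold threshold. ITGB3 was 51.6, 36.7 and 46.1 in Par, 99.5 and 61.9 in Int, 3757, 3684 and 2683 in Lep, and 465 and 604 in BrM. The order Lep, BrM, Int, Par held without overlap. ITGB3 differed by 6.20 ± 0.18 in Lep with Par (limma adjusted p = 2.3e-12), 5.39 ± 0.21 in Lep with Int (adjusted p = 1.8e-10), 2.65 ± 0.21 in Lep with BrM (adjusted p = 7.9e-08) and 3.55 ± 0.21 in BrM with Par (adjusted p = 2.7e-09). Int with Par, at 0.81 ± 0.21, was not called, and was called at 1.5 with quantile normalization and 1.01 after the length and GC correction. ITGB6 was 2571, 2312 and 2406 in Par, 2813 and 2542 in Int, 6028, 5656 and 4947 in Lep, and 6307 and 6741 in BrM. Par and Int overlapped, and Lep and BrM were both higher, by 1.19 ± 0.06 (limma adjusted p = 1e-09) and 1.43 ± 0.07 (adjusted p = 7.4e-10) over Par. ITGB8 ran from 872 to 952 in Par and from 1315 to 1435 in Lep, at 0.59 ± 0.05, and had no call.

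Expressed per kilobase of transcript, which allows levels of different genes to be compared, the mix of the αv partners ITGB3, ITGB5, ITGB6 and ITGB8 differed between HCC1954 stages. ITGB5, which is not among the 10, made up 70.1% ± 0.603 (SD, n = 3) of their summed level in Par, 49.2% ± 0.77 (n = 2) in Int, 25.2% ± 2.26 (n = 3) in Lep and 45.5% ± 0.925 (n = 2) in BrM. The ITGB3 share was 0.527% ± 0.0707 in Par, 1.43% ± 0.358 in Int, 28.8% ± 2.65 in Lep and 4.38% ± 0.656 in BrM. Lep libraries, at 25.7% to 30.4%, lay far above all others. The ITGB6 share was 24.5% ± 0.516 in Par, 41.0% ± 0.453 in Int, 40.6% ± 0.715 in Lep and 45.8% ± 0.551 in BrM, with Int and Lep overlapping. ITGB5 fell between Par and Lep, by 1.02 ± 0.04 on the log2 scale. In MDA-MB-231 and PC9, ITGB5 was the main partner gene at every stage, with stage means of 84.9% to 96.9%. Shares of RNA do not give shares of receptor pairs on the cell, and ITGB1 was left out of the sum because it serves many α subunits.

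**Figure D3:**
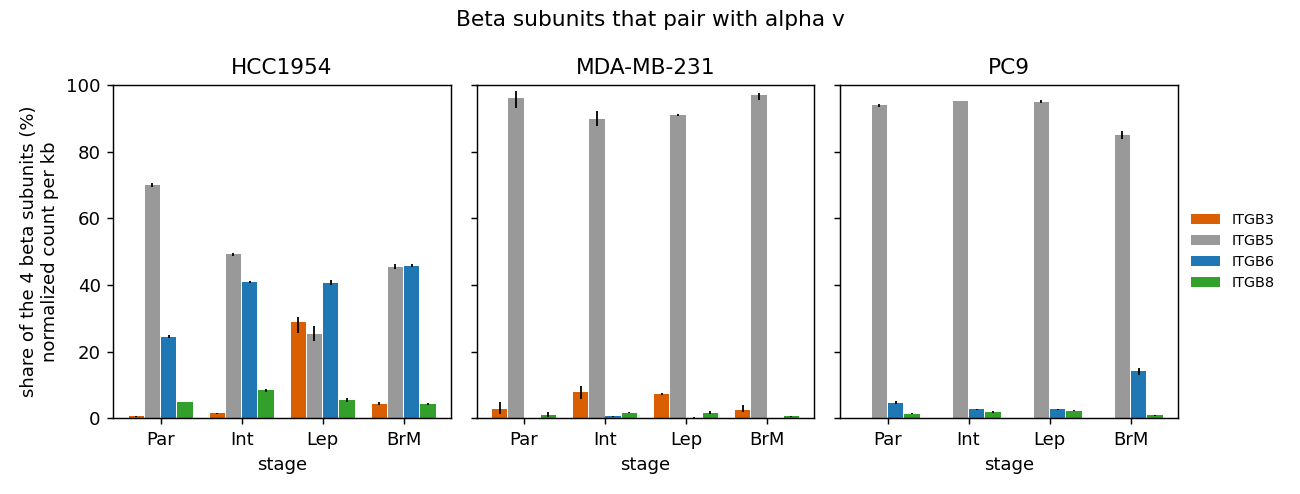
Share of the summed normalized count per kilobase of ITGB3, ITGB5, ITGB6 and ITGB8 (vertical axis, percent) held by each gene at each stage (horizontal axis) of the 3 human models; bars are means over libraries and black lines run from the lowest to the highest library. The ITGB3 share is 28.8% in HCC1954 Lep, and the ITGB6 share is 14.1% in PC9 BrM.

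In MDA-MB-231, ITGAV was 6933, 4461 and 2476 in Par, 10174 and 11679 in Int, 4992 and 5299 in Lep, and 2451, 2831 and 2756 in BrM. Int was above all other libraries, while Lep lay within the wide Par range. ITGAV differed by 1.36 ± 0.35 in Int with Par (limma adjusted p = 0.042), by 0.79 after the length and GC correction and by 1.18 with a replicate block, where its adjusted p was 0.061. ITGB3 was 254, 164 and 100 in Par, 394 and 742 in Int, 269 and 348 in Lep, and 232, 81.7 and 101 in BrM, with no call. ITGB6 was near the detection limit outside Int, at 5.04, 2.47 and 0 in Par, 40.7 and 70.9 in Int, 13.8 and 3.74 in Lep, and 2.14, 0 and 0 in BrM. It passed the filter on low values only through Int and 1 Lep library, so no fold or test of it is given. ITGB8 ran from 60 to 207 in Par and 236 to 295 in Int, at 1.42 ± 0.49, and had no call.

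In PC9, ITGB6 gave the widest range of any tested member. It was 335, 410 and 369 in Par, 211 and 170 in Int, 168 and 214 in Lep, and 1731, 1800 and 1600 in BrM. BrM stood far above, Par was next, and Int and Lep overlapped below. ITGB6 differed by 2.20 ± 0.11 in BrM with Par (limma adjusted p = 1.8e-08) and -3.16 ± 0.13 in Lep with BrM (adjusted p = 1.3e-09), and by 2.26 and -2.88 after the length and GC correction. Its share of the αv partners per kilobase was 4.69% ± 0.435 in Par, 2.74% ± 0.209 in Int, 2.64% ± 0.14 in Lep and 14.1% ± 1.13 in BrM. The summed level of the mesenchymal markers VIM, CDH2, FN1 and ZEB1 in PC9 was 158442 to 166453 in BrM, against 3641 to 4066 in Par, and its part in the ITGB6 result was not tested. ITGAV ran from 2129 to 2213 in Par, 1176 to 1265 in Int, 1053 to 1247 in Lep and 2247 to 2956 in BrM, and was called only in Lep with BrM, at -1.18 ± 0.10 (limma adjusted p = 5e-07), where the correction gave -0.67 and no call. ITGB8 took the opposite course, at 193, 221 and 205 in Par, 235 and 276 in Int, 287 and 330 in Lep, and 244, 222 and 179 in BrM. Lep was highest without overlap. ITGB8 differed by 0.58 ± 0.14 in Lep with Par and was called there, at 1.25 ± 0.12, after the length and GC correction (limma adjusted p = 5.3e-06).

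In LLC, ITGB8 was 76.8, 65.1 and 96.3 in Par, 12.1 and 18.6 in Int, 16.6, 3.83 and 23.9 in Lep, and 10.1, 0 and 4.94 in BrM. All derivative libraries lay below Par. ITGB8 was called in Lep with Par at -2.63 ± 0.79 (limma adjusted p = 0.016, 0.054 without Par replicate 3 and 0.067 without Lep replicate 2) and in BrM with Par at -4.29 ± 0.79 (adjusted p = 0.00075), while Int with Par, at -2.31 ± 0.88, was not called by limma (adjusted p = 0.073) but was by edgeR and DESeq2. ITGB3 was 53.3, 53.1 and 35.7 in Par, 276 and 46.1 in Int, 21.7, 42.2 and 45.7 in Lep, and 30.4, 39.3 and 29.6 in BrM. A single Int library stood out. ITGB3 was called in Lep with Int at -1.67 ± 0.59 (limma adjusted p = 0.033), and was -0.40 (adjusted p = 0.56) without Int replicate 1. ITGAV ran from 6178 to 6924 in Par and 5945 to 7449 in Lep, which overlapped, and it had no call in LLC.

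**Figure D4:**
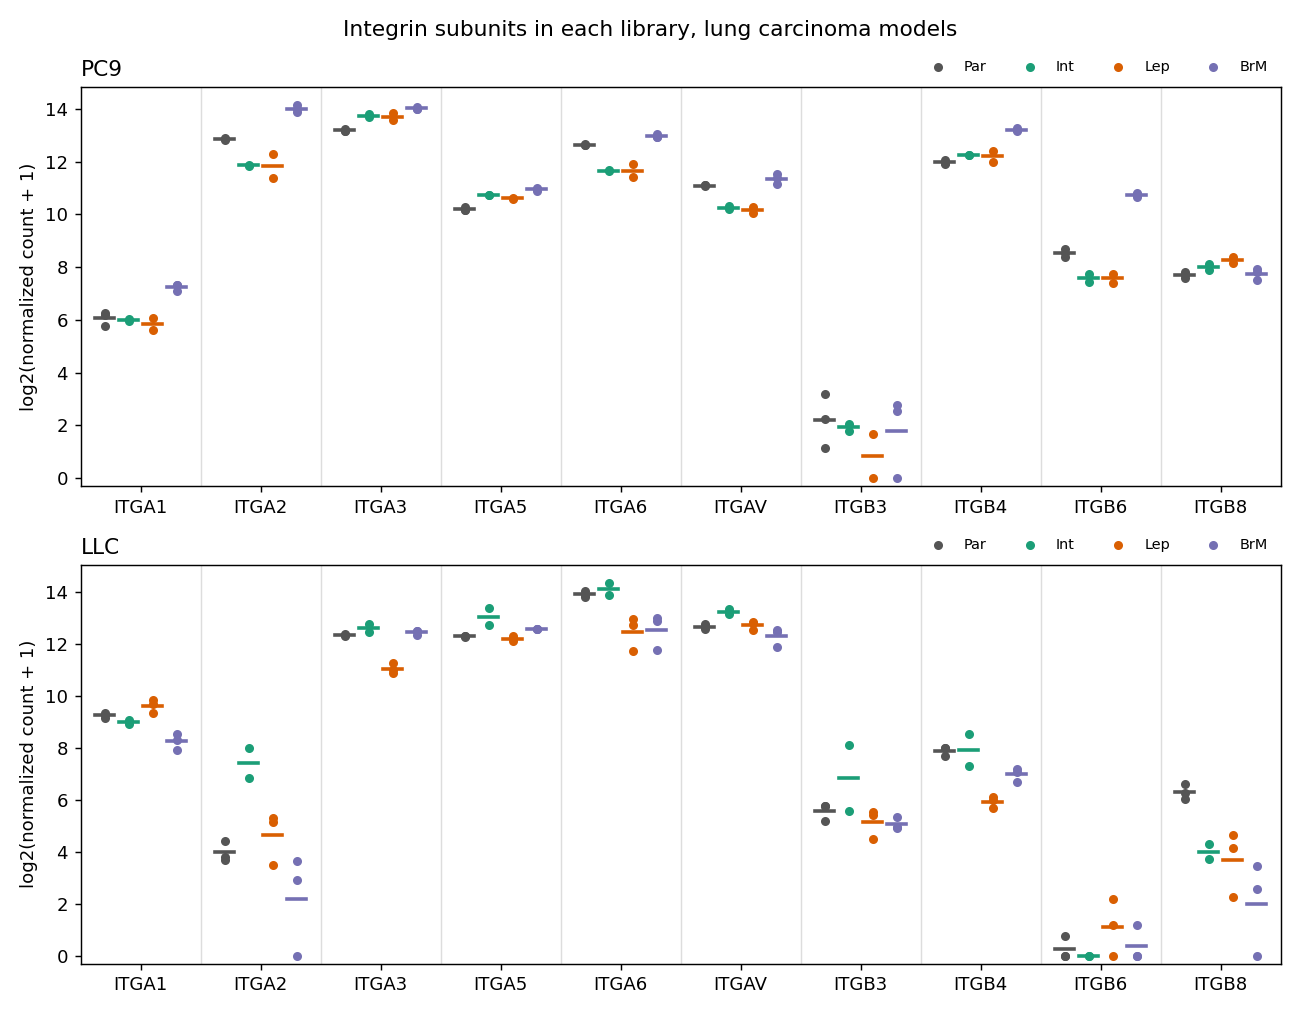
Level of each integrin subunit gene, as log2(normalized count + 1), in every library of PC9 (top) and LLC (bottom); points are libraries, colored by stage, and short bars are stage means. PC9 ITGB6 is highest in the 3 BrM libraries (1600 to 1800 normalized counts), and LLC ITGB8 is highest in the 3 Par libraries (65.1 to 96.3).

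**Figure D5:**
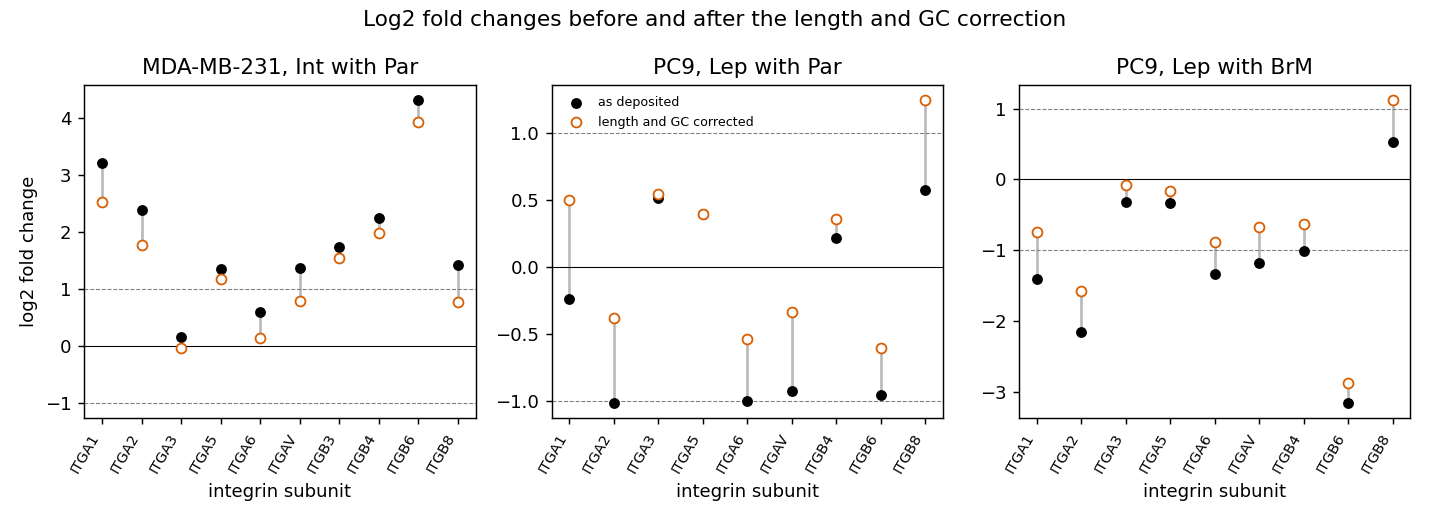
Log2 fold change (vertical axis) of each tested integrin subunit gene (horizontal axis) from the deposited values (filled) and after the length and GC correction (open), for MDA-MB-231 Int with Par, PC9 Lep with Par and PC9 Lep with BrM; dashed lines mark 1 and -1. In PC9 Lep with Par, ITGA2 moves from -1.02 to -0.38 and ITGB8 from 0.58 to 1.25, while PC9 ITGB6 in Lep with BrM moves only from -3.16 to -2.88. The points of MDA-MB-231 ITGB6 follow its selection, since it passed the filter only through Int and 1 Lep library.

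The shared partner gene ITGB1 was read beside the members, since α1, α2, α3 and α5 pair with β1 and α6 with β1 or β4. In HCC1954 it was 21283 to 21878 in Par, 26447 and 28880 in Int, 44189 to 49376 in Lep, and 20442 and 21851 in BrM. Lep was highest and separate, at 1.11 ± 0.04 over Par (limma adjusted p = 3e-11). In PC9 it was 11301 to 11641 in Par, 4068 and 3926 in Int, and 3597 and 4034 in Lep. Lep lay below Par by -1.58 ± 0.07 (limma adjusted p = 6.8e-09). PC9 BrM, at 14294 to 15977, lay above Par by 0.40 ± 0.06, under the fold threshold. In MDA-MB-231 and LLC, ITGB1 was not called in Lep with Par, at 0.24 ± 0.31 and -0.07 ± 0.11, and the libraries overlapped. Per kilobase, ITGB1 in HCC1954 Par was 5706 ± 78.8, followed by ITGA3 at 4713 ± 208, ITGB4 at 3603 ± 88.7 and ITGA6 at 2047 ± 55.8 (SD, n = 3), and ITGA1 and ITGB3 were lowest, at 10.4 ± 1.42 and 11.2 ± 1.88, 2 neighbours that did not differ beyond their spread. In HCC1954 Lep, ITGA3 at 6636 ± 337 and ITGB4 at 6404 ± 134 lay within their spread of each other, ahead of ITGA6 at 5356 ± 280. ITGB3 rose there to 845 ± 150, next to ITGA5 at 715 ± 60.2. In MDA-MB-231 Par, ITGA3 led the members at 9326 ± 1126 and ITGB6 was last at 0.535 ± 0.539. In PC9 Par, ITGA3 led at 1899 ± 54.5, then ITGA6 at 1141 ± 18.7 and ITGA2 at 951 ± 27.3.

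Genes of the same pathway were counted in Lep with Par from lists of other subunits, adhesion complex proteins, matrix ligands, latent TGF-beta genes and hemidesmosome proteins. In HCC1954, 10 of 20 RGD and interstitial matrix ligands were called higher and 3 lower, with a median of 1.1, beside 13% of all genes higher and 13.8% lower in this comparison. The fibrinogen chain gene FGG rose by 3.66 ± 0.11, and FGA was listed at 0 in Par and at 27.5 to 37.5 in Lep. FGA is in the count of called ligands, but Par could not bring it past the filter, so its call can follow its selection. SPP1, which encodes the αv ligand osteopontin, fell from 4880 ± 76 (SD, n = 3) to 17.2 ± 5.7 (SD, n = 3). Of 12 hemidesmosome and tetraspanin genes, 3 were called higher and 1 lower. The 3 were KRT14 (5.20 ± 0.41) and KRT5 (2.43 ± 0.23), the keratin pair of basal epithelial cells, and COL17A1 (3.99 ± 0.30), a transmembrane collagen of hemidesmosomes. Of 14 laminin and basement membrane genes 4 were called higher and 5 lower, among them LAMA4, which went from 1046 ± 59.5 to 0.417 ± 0.722 (SD, n = 3). Of 13 latent TGF-beta genes 2 were called higher and 3 lower, with TGFB2 at 2.52 ± 0.11 and the latent TGF-beta binding protein gene LTBP3 at -1.79 ± 0.03. Adhesion complex genes counted 2 higher and 1 lower of 27, and other integrin subunits 2 and 3 of 12, among them ITGA9 at -2.15 ± 0.35 and ITGAL at 1.12 ± 0.12. Of these 2 stages, LAMA4 and ITGA9 reached the filter value only in Par, so both calls can follow their selection.

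In MDA-MB-231 Lep with Par limma called 0 genes in all 6 lists, of 9 to 28 tested per list, with 0 to 4 per list at an unadjusted p under 0.05. Limma called 0.0662% of all genes in this comparison, so counts of 0 do not set these lists apart. In PC9 Lep with Par, RGD and interstitial ligands counted 1 higher and 4 lower of 15 (6.65% and 8.49% of all genes), with SPP1 at -3.84 ± 0.45 and THBS1, the gene of the adhesive matrix protein thrombospondin 1, at -2.29 ± 0.25. Laminin genes counted 0 and 2 of 14, adhesion complex genes 0 and 2 of 28, latent TGF-beta genes 0 and 1 of 13, hemidesmosome genes 1 and 1 of 11, and other integrin subunits 2 and 1 of 10. The 2 higher ones were the leukocyte integrin genes ITGAM, at 126 to 160 in Lep against 4.05 to 18.3 in Par, and ITGB2, at 248 to 478 against 112 to 134. Both are also among the 7 leukocyte markers, whose summed level was 3843 to 4941 in PC9 Lep and 3299 to 3454 in Par, with PTPRC and AIF1 below 10, and its part was not tested. In LLC Lep with Par, RGD and interstitial ligands counted 3 higher and 9 lower of 18 (8.0% and 12.3% of all genes), with a median of -1.03. EDIL3, a secreted αv ligand, fell by 4.67 ± 0.54 on the log2 scale, and the collagen gene COL6A3 by 3.93 ± 0.67, while the matricellular ligand gene CTGF rose by 4.29 ± 0.55. Laminin genes counted 3 and 4 of 13, with LAMA1 going from 35.8 ± 5.25 to 0.426 ± 0.738 and LAMA3 from 1.08 ± 0.323 to 31.0 ± 25.3 (SD, n = 3). Of these 2 stages, LAMA1 reached the filter value only in Par and LAMA3 only in Lep, so both calls can follow their selection. Latent TGF-beta genes counted 2 and 4 of 12, hemidesmosome genes 1 and 1 of 9, adhesion complex genes 1 and 1 of 27, and other integrin subunits 0 and 0 of 10, with 1 of those at an unadjusted p under 0.05 in limma.

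Other genes were ranked by likeness to the member with the widest range of stage means in each model, as Pearson correlation of log2(normalized count + 1) over all libraries of the model, a description without a test over libraries that share stages. In HCC1954 that member was ITGB3, with a range of 6.20 on the log2 scale, and the nearest of 15561 genes over 10 libraries were RAI14 (r = 0.997), SEC14L1 (0.996) and BPGM (0.995). In MDA-MB-231 it was ITGB6, with ARHGEF3 (0.988) and FUT8 (0.985) among its nearest genes. ITGB6 passed the filter there only through Int and 1 Lep library, so its rank and these correlations follow its selection. In PC9 it was ITGB6 (range 3.17), with PLEKHA2 (0.996), KIAA1797 and RAP1GAP2 (both 0.995). In LLC it was ITGA2 (range 5.24), with DIAP1 (0.964), AQP3 (0.963) and EPM2A (0.961) over 11 libraries.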

How the data were processed

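Each model came as a table of normalized counts made by the authors. The deposited signal values behave as reads over a scaling factor of the library: within a library 100% of them were whole multiples of 1 step, at a tolerance of 0.01, which gave back the reads. On those reads edgeR called 4203 genes in HCC1954 Lep with Par, 8 in MDA-MB-231, 2212 in PC9 and 2780 in LLC. The submitters' processing notes name FastQC 0.11.3, HTSeq 0.5.4, DESeq2 and the builds hg19 (GRCh37) and mm10 (GRCm38). No aligner is named in what was used here. Per the labels' protocols, TruSeq libraries were read paired-end, with longer reads in MDA-MB-231 than elsewhere. Strand was not stated, so reads of a gene and an antisense partner cannot be told apart.

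A gene entered the test if 2 or more libraries reached a value of 10. The log2(value + 1) values of a model went into a single two-sided limma fit with trend (limma 3.58.1, R 4.3.3), read on 5 comparisons: Lep, Int and BrM with Par, and Lep with Int and with BrM. Alternatives were other pseudocounts and filters, TMM, quantile normalization, edgeR 4.0.16 and DESeq2 1.42.0 on recovered reads, only the 2 stages compared, a replicate block, each library left out, and a natural spline (5 degrees of freedom) on transcript length and GC content. The spline used the longest GENCODE transcript, which matched 88.3% to 88.7% of tested human genes. The limma fit was tried for Lep with Par on simulated counts. These held no library differences tied to transcript length, so the trial does not bear on such differences. In MDA-MB-231 Par and BrM, same-numbered libraries deviated together in all 3 pairs (r = 0.23 to 0.50). The labels do not say that the numbers pair samples, so the block was run only as an alternative.

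Members, lists and comparisons were chosen with earlier results of these data known. Named genes are all 10 members and up to 3 called genes of largest fold per list in Lep with Par. Other genes are named for likeness of pattern, of which 1 is not reported here, or as the β partners of members.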

Additional observations from a re-analysis of the deposited data

Results flagged for a closer look

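Some members were called in opposite directions in the same comparison of 2 models, with libraries that did not overlap in either. The difference between models was not tested, since each table was normalized on its own. In Lep with Par, ITGA6 was 1.39 in HCC1954 but -1.0 in PC9 and -1.44 in LLC. In Int with Par, ITGA2 was 2.39 in MDA-MB-231 and 3.44 in LLC but -1.01 in PC9. In BrM with Par, ITGA2 was 1.14 in PC9 and -1.03 in HCC1954, and ITGB4 was 1.23 in PC9 and -1.13 in HCC1954. In Lep with Int, ITGA6 was 1.46 in HCC1954 and -1.64 in LLC, and ITGB3 was 5.39 in HCC1954 and -1.67 in LLC. The LLC value of ITGB3 rests on 1 Int library, with 276 and 46.1 in Int and 21.7 to 45.7 in Lep. In Lep with BrM, ITGA1 was 1.36 in LLC and -1.40 in PC9, ITGA2 was 1.52 in HCC1954 and -2.16 in PC9, ITGA3 was 1.06 in HCC1954 and -1.41 in LLC, and ITGA6 was 2.43 in HCC1954 and -1.33 in PC9. ITGB4 in Lep with BrM was 1.96 in HCC1954 and 1.97 in MDA-MB-231 but -1.01 in PC9 and -1.05 in LLC. The length and GC correction, not run for LLC, ended the calls of ITGA6 in PC9 Lep with Par (-0.54), ITGA2 in PC9 Int with Par (-0.40), ITGA2 in HCC1954 BrM with Par (-0.91), ITGB4 in BrM with Par in both HCC1954 (-0.95) and PC9 (0.99), ITGA3 in HCC1954 Lep with BrM (0.98), and ITGA1, ITGA6 and ITGB4 in PC9 Lep with BrM (-0.74, -0.88 and -0.63).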

How the results depend on the processing

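Of 58 member calls, 29 were kept under every alternative run and 29 were lost under at least 1, and none changed direction. The 58 include ITGB6 in MDA-MB-231 Int with Par, whose call follows its selection. Among members called in the reported test or under an alternative, 1 value that was not a call changed sign: ITGB3 in LLC Int with Par, not called at 1.26, was -0.01 without Int replicate 1 and 2.54 without Int replicate 2. Other values without a call changed sign under the length and GC correction, among them ITGA1 in PC9 Lep with Par (-0.24 to 0.50, limma adjusted p = 0.037) and Int with Par (-0.08 to 0.62, adjusted p = 0.015) and ITGA6 in MDA-MB-231 Lep with BrM (0.25 to -0.12, adjusted p = 0.83). In HCC1954 Lep with Par the count of 5 called members was the same under 12 alternatives and with each of 10 libraries left out. The cause of the following changes was not tested. With the length and GC correction the number of members called became 4 in HCC1954 Lep with Int (5 before), 4 in HCC1954 Lep with BrM (6), 1 in HCC1954 Int with Par (0), 3 in PC9 BrM with Par (4), 3 in HCC1954 BrM with Par (6), 1 in PC9 Lep with Par (2), 0 in PC9 Int with Par (1) and 3 in PC9 Lep with BrM (6). Adding the replicate block to that correction gave 3, 1, 0 and 3 in the last 4 and 1 in MDA-MB-231 Lep with Int (0). With quantile normalization it was 1 in HCC1954 Int with Par. With TMM scaling it was 1 in PC9 Lep with Par and 0 in PC9 Int with Par. With a pseudocount of 5 it was 1 in PC9 Lep with Par and 2 in LLC Int with Par (1). With edgeR it was 0 in PC9 Lep with Par, 0 in PC9 Int with Par and 3 in LLC Int with Par. With DESeq2 it was 0 in PC9 Lep with Par, 3 in LLC Int with Par, 1 in MDA-MB-231 BrM with Par (0), 2 in MDA-MB-231 Lep with Int and 2 in MDA-MB-231 Lep with BrM (1). With only the 2 stages compared it was 3 in MDA-MB-231 Int with Par (6), 2 in MDA-MB-231 Lep with BrM and 2 in LLC Int with Par.

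Leaving out each library in turn gave 0 to 1 members in HCC1954 Int with Par, 0 to 1 in MDA-MB-231 Lep with Par, 0 to 8 in MDA-MB-231 Int with Par, 0 to 2 in MDA-MB-231 BrM with Par, 0 to 1 in MDA-MB-231 Lep with Int and 0 to 3 in MDA-MB-231 Lep with BrM. In PC9 it gave 1 to 3 in Lep with Par and 0 to 2 in Int with Par, and in LLC 0 to 3 in Int with Par, 2 to 4 in BrM with Par, 2 to 6 in Lep with Int and 2 to 5 in Lep with BrM. The number of called members also moved in HCC1954 BrM with Par, Lep with Int and Lep with BrM. It moved too in PC9 Lep with BrM and LLC Lep with Par. A stage left with 1 library was assumed to vary like the others. The replicate block ended the calls of ITGAV in MDA-MB-231 Int with Par (1.18, adjusted p = 0.061) and ITGB3 in LLC Lep with Int (-1.65, adjusted p = 0.058), and no other member call. In pairs of stages other than MDA-MB-231 Par and BrM, same-numbered libraries correlated at -0.11 to 0.37. Whether the numbers pair any libraries is not stated in the labels.

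Counts over all genes varied most in MDA-MB-231, where leaving out libraries gave 0 to 3845 calls in Int with Par (1049 in all), 3 to 112 in Lep with Par (10), 2 to 422 in BrM with Par (68), 2 to 369 in Lep with Int (24) and 6 to 700 in Lep with BrM (125), and the other alternatives 356 to 2170, 4 to 274, 5 to 471, 0 to 470 and 62 to 740. In PC9 Lep with Int (88) they were 26 to 371 and 1 to 126. The correction gave as few as 1461 and 1336 in PC9 Lep with Par (2191) and Int with Par (2019), with the block. PC9 BrM with Par (1118) fell to 735 with a filter at 50, which tests fewer genes. LLC Int with Par (1548) was 1004 without Int replicate 2. Of 120 list counts, 67 moved by over 1.5 times under at least 1 alternative. A length and GC correction was not run for LLC, since the lengths used are human.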
